A study of Mus musculus with 20 samples.

Results

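Whole injured tibialis anterior, a muscle of the shin, was compared between 18 h and 12 h after damage. The comparison used 6 of the 20 libraries of the series, chosen by the time and tissue in their labels, 4 of them from 18 h and 2 from 12 h. The other libraries held sorted resident macrophages, sorted infiltrating cells and dystrophic muscle. All 6 libraries came from male C57BL/6J mice. The control group (CNTL) had received an unmedicated rodent diet for 3 weeks, and the PLX group had received the same diet with PLX73086 at 200 mg per kg of food. PLX73086 inhibits CSF1R, a receptor on which macrophages depend. Both groups were then returned to regular food for 3 days before the muscle was damaged, so neither group was on the drug at injury. There was 1 library at 12 h and there were 2 libraries at 18 h in each diet group, each made from the total RNA of 1 muscle. The labels used here give no age and do not say what damaged the muscle, and they include no undamaged muscle of these mice. They do not say whether the muscles came from separate mice, so p-values measure the spread between these libraries, which may in part be technical.

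Damaged muscle passes within hours from an alarm phase to an infiltration phase. Cytokines and chemokines released by injured fibres, vessel cells and resident macrophages draw in neutrophils and then monocytes, which mature into macrophages that clear debris. Immediate early genes are transcribed within minutes of a stimulus without new protein synthesis and are shut off again soon after. Satellite cells, the stem cells of muscle, leave quiescence and express MyoD before they copy their DNA and divide.

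Levels are given in FPKM, fragments per length of transcript and depth of library, as the authors deposited them. The fibre genes Acta1, Ckm, Mylpf and Tnnt3 together reached 21537 to 63931 FPKM, so the labelled tissue was present in every library, and the 3 PLX libraries (21537 to 30040 FPKM) lay below the 3 control libraries (49291 to 63931 FPKM). The title number was 180 for both 12 h libraries and for replicate 1 of each diet at 18 h, and 178 for replicate 2 of each diet. The labels do not say what the number stands for, and with no 12 h library numbered 178 it can only be compared at 18 h. Red cell genes stood with the number: 5 globin genes summed to 4961 and 7918 FPKM in the libraries numbered 178 and to 1020 to 2302 FPKM in the others. On the first principal component (50.7% of variance) the PLX 18 h libraries, at -33.7 and -42.0, stood apart from the others, at 8.27 to 31.8. The 12 h library of the PLX diet stood apart from the other 5 on the second principal component (28.0%), at -43.7 against -2.11 to 21.6. On the third (11.5%) the 12 h library of the control diet was lowest, at -23.2 against -10.9 to 16.9. Relative depth, estimated from the steps between low values, was 0.655 to 1.05 of PLX 18 h replicate 1.

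Of 11544 genes whose mean reached 1 FPKM, few separated the times after adjustment. The control and PLX diets gave very unequal numbers. The test was limma on log2(FPKM + 1) with Benjamini-Hochberg adjustment over all these genes and a threshold of 0.05, and changes are on that log2 scale, which understates the change of low genes. With diet as a term and all 6 libraries, 1 gene was higher at 18 h (0.00866% of genes) and 7 were lower (0.0606%), while 2286 had an unadjusted p under 0.05 (19.8%), 859 of them higher (7.44%) and 1427 lower (12.4%). Within the PLX diet, 1126 genes rose (9.75%) and 1021 fell (8.84%). Within the control diet, 2 rose (0.0173%) and 1 fell (0.00866%), and 1609 had an unadjusted p under 0.05 (13.9%). Each of these within-diet tests sets 2 libraries against 1, and assumes that the lone 12 h library varies as the 18 h libraries do. The test with diet as a term also counts any difference of the time effect between diets as spread, so its p-values do not measure library spread alone. No gene passed for a difference of the time effect between diets (0.0%), with a lowest adjusted p of 0.0678 by limma, and 2717 had an unadjusted p under 0.05 (23.5%). Without the filter on low values, 214 genes passed higher and 268 lower for this difference, with a minimum mean of 5 FPKM 10 and 4 did, and with the title number as a term 478 and 242 did. The unequal counts are therefore not a settled difference between diets. The PLX counts fell to 315 higher and 426 lower without PLX 18 h replicate 2 and to 642 and 736 without replicate 1. Without control 18 h replicate 1 they were 699 and 627, and without control replicate 2 717 and 643, since all groups share the estimate of spread.

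Agreement between diets could be examined because the within-diet comparisons share no library. At least 2-fold differences of the same sign in both diets were found for 42 genes that were higher at 18 h (0.364% of genes) and 69 that were lower (0.598%), and 20 genes differed at least 2-fold in opposite directions (0.173%). These numbers move with the setting: 14 higher and 41 lower with only the libraries numbered 180, 92 and 128 with a pseudocount of 0.1, and 24 higher with a minimum mean of 5 FPKM. Both 18 h libraries lay above the 12 h library in each diet for 2005 genes (17.4%) and below it for 2354 (20.4%), and the diets took opposite sides for 3148 (27.3%). Across all tested genes the changes in the 2 diets correlated with r = 0.29, a description over genes, which are not independent. Of the 42 genes that were higher in both diets, 7 belonged to the list of DNA replication genes, 3 to that of mitosis genes, while Pf4 belonged to both the neutrophil-attracting chemokines and the resident macrophage genes and Hbb-bs to the erythroid genes. Of the 69 lower in both, 6 were among the 29 tested immediate early genes and 4 among the 25 cytokine genes. A further 3 each were among the 22 monocyte-attracting and other chemokines, the 11 genes of smooth muscle and pericytes and the 14 of satellite cells and myogenic factors, and no other list held more than 2. For each list below, the count of members above or below is to be read against 17.4% and 20.4% of all genes, and the count that rose or fell within the PLX diet against 9.75% and 8.84%. At the edge of this rule, Chaf1b lay just inside on the higher side with changes of 1.02 and 1.90 in the control and PLX diets, and Pbk just outside with 0.99 and 2.32.

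**Figure D1:**
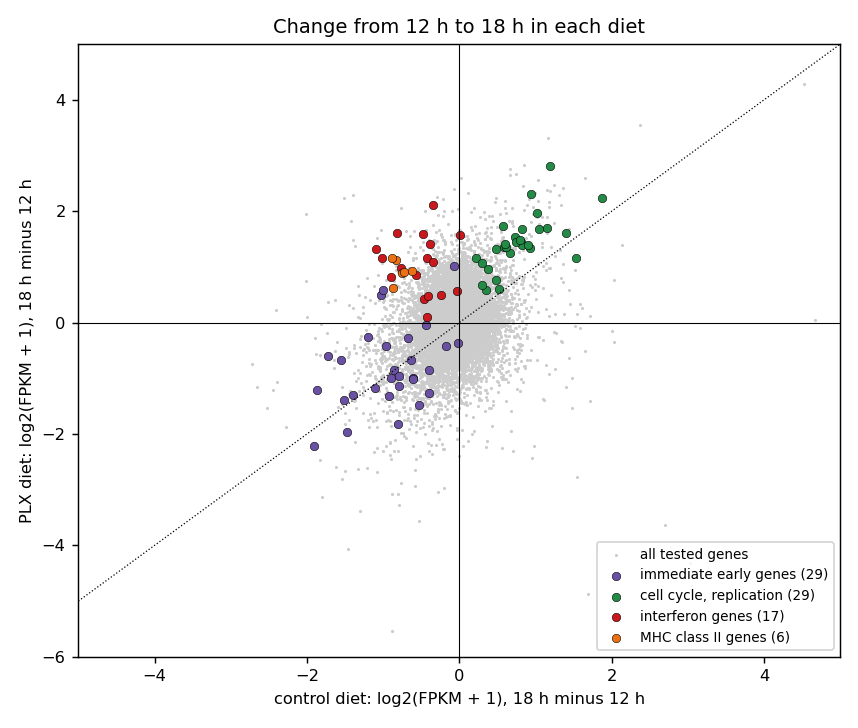
Change from 12 h to 18 h on the control diet (x axis) against the PLX diet (y axis), in log2(FPKM + 1), with 1 point per tested gene (11544) and 4 gene lists in colour; the dotted line marks equal change. The 29 replication genes lie at positive values in both diets and most of the 29 immediate early genes at negative values in both, while the 17 interferon and 6 MHC class II genes lie at positive values on the PLX diet and, but for Oas1a near 0, at negative values on the control diet.

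The 7 genes that fell with diet as a term were Rrad, Egr1, F3, Kdm6b, Il6, Ccl24 and Daam1. Rrad, which encodes a small GTP-binding protein of muscle, was listed at 1172 FPKM at 12 h and 281 and 207 FPKM at 18 h on the control diet, and 411 FPKM at 12 h and 111 and 111 FPKM at 18 h on the PLX diet. Egr1, an immediate early transcription factor, was listed at 457 FPKM at 12 h and 121 and 121 FPKM at 18 h on the control diet, and 318 FPKM at 12 h and 76.5 and 59.7 FPKM at 18 h on the PLX diet. In both genes every 18 h library lay below every 12 h library. Rrad fell by 2.08 (SE 0.20, limma adjusted p = 0.0326) and Egr1 by 2.06 (SE 0.18, adjusted p = 0.0317).

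F3 encodes tissue factor, which starts coagulation, and Il6 encodes a cytokine of early inflammation. F3 was at 15.6 FPKM at 12 h against 4.73 and 5.0 at 18 h on the control diet, and 25 against 7.14 and 5.58 on the PLX diet. Il6 was at 8.63 FPKM at 12 h against 2.52 and 1.89 at 18 h on the control diet, and 7.81 against 2.0 and 2.13 on the PLX diet. The times did not overlap in either gene, and the changes were -1.67 (SE 0.15) for F3 and -1.56 (SE 0.14) for Il6, both with limma adjusted p = 0.0317.

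Kdm6b, a histone demethylase that removes methyl groups from lysine 27 of histone H3, was at 31.2 FPKM at 12 h against 11 and 10.5 at 18 h on the control diet, and 25.8 against 7.63 and 6.46 on the PLX diet. Ccl24, a chemokine for eosinophils made by resident macrophages, was at 80.5 FPKM at 12 h against 28.3 and 33 at 18 h on the control diet, and 90.4 against 34.2 and 33.5 on the PLX diet. Daam1, a formin that assembles actin filaments, was at 20.6 FPKM at 12 h against 7.8 and 8.13 at 18 h on the control diet, and 11.8 against 4.16 and 4.19 on the PLX diet. All 18 h libraries lay below the 12 h library of their diet, with changes of -1.60, -1.38 and -1.29 and limma adjusted p of 0.0317, 0.0336 and 0.0317. On the control and PLX diets the changes were -1.37 and -1.39 for Ccl24 and -1.59 and -1.52 for Il6, with differences of -0.02 (SE 0.22) and 0.07 (SE 0.27). All 7 decreases also passed with the 4 libraries numbered 180 alone. None of the 7 passed when control 18 h replicate 2, PLX 18 h replicate 1, PLX 18 h replicate 2 or the PLX 12 h library was left out, and their changes stayed negative in each case.

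**Figure D2:**
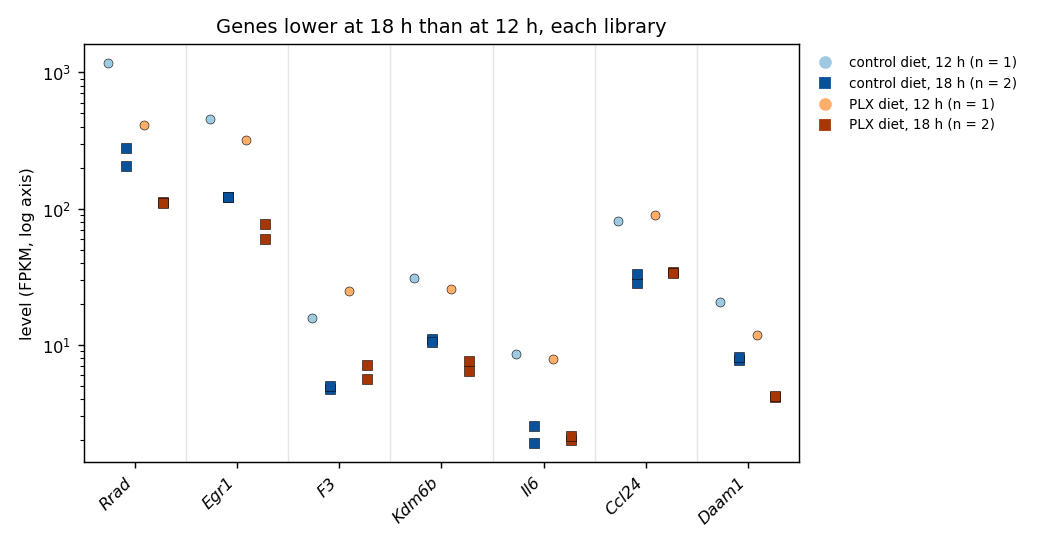
Levels in FPKM (log axis) of the 7 genes that fell, with 1 point per library, circles for 12 h and squares for 18 h, blue for the control diet and orange for the PLX diet. Within each diet every square lies below the circle, as for Il6, at 8.63 and 7.81 FPKM at 12 h and 1.89 to 2.52 FPKM at 18 h.

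The only gene that rose with diet as a term, Hbb-bs, encodes a beta globin and is uncertain. It was listed at the table's floor of 0.01 FPKM in both 12 h libraries and at 15.3 to 25.9 FPKM in the 4 libraries of 18 h (limma adjusted p = 0.00168). Its entry shares its position with Hbb-b1, at 669 to 5497 FPKM, so the authors' counting may have split fragments between both names. Eif3j1, which rose within the control diet from 0.0985 FPKM to 34.9 and 20.8 FPKM, shares its position with Eif3j2 in the same way. Hbb-bs and Eif3j1 averaged under 1 FPKM at 12 h and passed the filter through 18 h libraries, Eif3j1 through those of the control diet alone. The filter therefore fixed their higher mean at 18 h. Ccl22, a chemokine of dendritic cells and macrophages, was the 1 gene that fell within the control diet, from 26.5 FPKM to 3.03 and 3.33 FPKM (limma adjusted p = 0.0196), and it also fell within the PLX diet, from 9.92 to 5.53 and 5.45 FPKM (adjusted p = 0.031).

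Immediate early genes were lower at 18 h almost throughout. Of 29 tested, 25 had both 18 h libraries below the 12 h library in each diet, where 20.4% of all genes did so, and none had them above. Of the 29, 1 averaged under 1 FPKM at 18 h and passed the filter through the 12 h libraries. Its mean at 18 h therefore had to be lower. With no filter, 26 of the 30 genes listed lay below in both diets and none above, where 13.4% of all genes of the table lay below. The median change was -0.86, against 0.01 over all tested genes, and it was -0.85 on the control diet and -0.96 on the PLX diet. Within the PLX diet 15 of the 29 fell and none rose, where 8.84% of all genes fell and 9.75% rose. With diet as a term 1 of the 29 passed, where 0.0606% of all genes fell.

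Egr1, described above, was the one that passed. Btg2, which restrains cell division, was at 310.4 FPKM at 12 h against 102 and 121 at 18 h on the control diet, and 189 against 58.5 and 38.9 on the PLX diet. Nr4a1, an orphan nuclear receptor, was at 256 FPKM at 12 h against 71 and 68.2 at 18 h on the control diet, and 64.8 against 29.6 and 25.2 on the PLX diet. Dusp2, a phosphatase that switches off MAP kinases, was at 116 FPKM at 12 h against 41.2 and 38.5 at 18 h on the control diet, and 58.8 against 26.4 and 17.9 on the PLX diet. In these 3 genes the times did not overlap within either diet, and their adjusted p-values with diet as a term were 0.0598, 0.0557 and 0.056 by limma; each fell within the PLX diet.

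Among the AP-1 members, Fos and Junb lay below in both diets and Jund did not. Fos was at 36.9 FPKM at 12 h against 16.3 and 22.9 at 18 h on the control diet, and 38.7 against 18.4 and 19.6 on the PLX diet, and fell within the PLX diet (change -0.99, limma adjusted p = 0.0346). Junb was at 431 FPKM at 12 h against 128 and 132 at 18 h on the control diet, and 218 against 148 and 137 on the PLX diet, with changes of -1.72 on the control diet and -0.61 on the PLX diet (difference 1.11, SE 0.23, adjusted p = 0.0922). Jund was at 84 FPKM at 12 h against 42.1 and 39.4 at 18 h on the control diet, and 27.5 against 37.1 and 40.8 on the PLX diet, below on the control diet and above on the PLX diet. Jund, Klf2, Ier5 and Ier3 were the 4 of the 29 genes that were not below in both diets, and Klf2 took the same opposite sides as Jund. Klf4, a regulator of vessel and myeloid cells, fell within the PLX diet (limma adjusted p = 0.0266) and was at 36.9 FPKM at 12 h against 24.2 and 23.4 at 18 h on the control diet, and 30.6 against 17 and 13 on the PLX diet.

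Genes of acute inflammation were mostly lower at 18 h as well. Of 25 tested cytokine and cytokine response genes, 15 lay below in both diets (20.4% of all genes) and 4 above, near the 17.4% of all genes. On the PLX diet alone 7 fell (8.84% of all genes) and 2 rose, near the 9.75% of all genes. Il1b, the main form of interleukin 1 from myeloid cells, was at 42 FPKM at 12 h against 7.75 and 6.68 at 18 h on the control diet, and 30.3 against 19.8 and 9.77 on the PLX diet, with changes of -2.39 and -1.06. Il33, an alarm cytokine of stromal cells, was at 13.9 FPKM at 12 h against 7.28 and 5.72 at 18 h on the control diet, and 62.2 against 10.5 and 13.2 on the PLX diet, and it fell within the PLX diet (limma adjusted p = 0.0133). Socs3, a feedback inhibitor of IL-6 signalling, was at 60.6 FPKM at 12 h against 35.5 and 29.4 at 18 h on the control diet, and 77.7 against 35.4 and 22.5 on the PLX diet, and it fell within the PLX diet (adjusted p = 0.0281). Il10, an anti-inflammatory cytokine, went the other way, at 0.734 FPKM at 12 h against 2.45 and 2.45 at 18 h on the control diet, and 2.35 against 4.41 and 3.69 on the PLX diet, with a change of 0.79 that did not pass (adjusted p = 0.0943). Saa1, an acute phase protein outside this list that lay among the genes lower at least 2-fold in both diets, was at 18.5 FPKM at 12 h against 5.2 and 5.58 at 18 h on the control diet, and 33.8 against 5.91 and 3.86 on the PLX diet.

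Chemokines that attract neutrophils were mostly lower at 18 h. Of 6 tested, 4 lay below in both diets (20.4% of all genes), 1 above (17.4%) and 1 on opposite sides (27.3%), and within the PLX diet 3 fell and none rose. The 1 above was Pf4, at least 2-fold higher in both diets (changes 1.10 and 1.02). Of the 4 below, all ligands of the neutrophil receptor CXCR2, Cxcl3 was at 37.9 FPKM at 12 h against 11.9 and 16.8 at 18 h on the control diet, and 79.2 against 25 and 28.1 on the PLX diet. Cxcl5 was at 138 FPKM at 12 h against 58.9 and 49.8 at 18 h on the control diet, and 139 against 87.2 and 67.3 on the PLX diet. Cxcl1 and Cxcl2 had changes of -1.02 and -1.19, and all 4 had both 18 h libraries below the 12 h library in each diet. The 3 that fell within the PLX diet were Cxcl3, Cxcl5 and Cxcl1. Ppbp, the last tested ligand of this receptor, took opposite sides in the diets, with 0.73 on the control and -0.72 on the PLX diet. Ccl17, which like Ccl22 binds CCR4, was at 15.7 FPKM at 12 h against 1.31 and 2.0 at 18 h on the control diet, and 10.4 against 4.74 and 3.48 on the PLX diet. Ccl11, which draws eosinophils, was at 36.4 FPKM at 12 h against 13.4 and 13.9 at 18 h on the control diet, and 66.7 against 20.1 and 35.1 on the PLX diet. Both fell within the PLX diet, with limma adjusted p of 0.0313 and 0.0401.

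From the list of monocyte-attracting and other chemokines, Ccl8, Ccl12, Ccl7 and Ccl2 were higher at 18 h on the PLX diet. Ccl8 was at 63.9 FPKM at 12 h against 94 and 142 at 18 h on the control diet, and 65.8 against 295 and 246 on the PLX diet. Ccl12 was at 99 FPKM at 12 h against 109.7 and 173 at 18 h on the control diet, and 83.9 against 381 and 383 on the PLX diet. Both genes lay above in both diets, and both rose within the PLX diet, by 2.02 and 2.17 (limma adjusted p = 0.0179 and 0.0174). Ccl7 rose within the PLX diet (1.50, adjusted p = 0.0267) and its control change was 0.12. Ccl2, the main monocyte attractant, was at 754 FPKM at 12 h against 512 and 835 at 18 h on the control diet, and 427 against 971 and 972 on the PLX diet, and its PLX change of 1.18 did not pass (adjusted p = 0.0526). Over the 22 tested chemokines of this second list, 9 lay below and 2 above in both diets (20.4% and 17.4% of all genes), and within the PLX diet 5 rose and 4 fell (9.75% and 8.84%).

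Neutrophil genes were mostly lower at 18 h, and the summed level of the markers S100a8, S100a9, Cxcr2 and Csf3r was 857 FPKM at 12 h against 530.1 and 583 FPKM at 18 h on the control diet and 1619 against 1042 and 669.8 FPKM on the PLX diet. Of 15 tested, 11 lay below in both diets (20.4% of all genes) and none above, with a median change of -0.75 against 0.01 over all genes. Within the PLX diet 1 of the 15 fell, no more than the 8.84% of all genes. That gene was S100a8, a calcium-binding protein abundant in neutrophils, at 419.9 FPKM at 12 h against 301 and 303 at 18 h on the control diet, and 901 against 439 and 275 on the PLX diet (PLX change -1.37, limma adjusted p = 0.0345). Cxcr2, the receptor that neutrophils follow, was at 18.2 FPKM at 12 h against 10.2 and 9.1 at 18 h on the control diet, and 31 against 18.7 and 10.9 on the PLX diet. Trem1, an activating receptor of neutrophils and monocytes, was at 4.92 FPKM at 12 h against 2.32 and 1.52 at 18 h on the control diet, and 7.96 against 4.63 and 2.68 on the PLX diet. In whole muscle, fewer cells of a type and less RNA per cell cannot be told apart, here and for each cell type below.

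DNA replication genes were higher at 18 h almost throughout. Of 29 tested, 28 had both 18 h libraries above the 12 h library in each diet, where 17.4% of all genes did so, and none lay below. Of the 29, 4 averaged under 1 FPKM at 12 h and passed the filter through the 18 h libraries, so they had to be higher; with no filter, 29 of the 30 genes listed lay above in both diets and none below, where 24.4% of the 23033 genes of the table lay on one side in both diets, 2531 of them above and 3097 below. The median change of the tested genes was 1.12, at 0.75 on the control diet and 1.39 on the PLX diet. Within the PLX diet 23 of the 29 rose and none fell, with diet as a term none of the 29 passed and all 29 had an unadjusted p under 0.05 (19.8% of all genes), and within the control diet none passed. With the libraries numbered 180 alone 28 lay above in both diets (23.1% of all genes), and with only those numbered 178 from 18 h all 29 did (31.0% of all genes).

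E2F factors switch on replication genes at the start of S phase, and 8 of the 24 replication genes with a promoter in the RefSeq table (build GRCm38.p6) held an E2F motif, TTTGGCGC or TTTCCCGC on either strand, in the window from 250 bases before to 50 after a gene start. That is 33.3%, against 3.39% of 8850 tested genes with a promoter there and 1.80% of all 27025 genes of the table. A match is a description of these letters and not a measured site. None of the 16 mitosis genes with a promoter held one, while 12 of them held a CCAAT box (75.0%, against 42.1% of tested genes). The CCAAT box was not particular to the mitosis genes, as 15 of the 24 replication promoters also held it (62.5%). The promoters of the 4 subunits of the MCM helicase, which unwinds DNA at replication forks, that held the E2F motif are shown because their genes moved together, with the motif in capitals, 5′ to 3′ on the gene's strand.
Mcm3 (chr1:20820263-20820562, minus strand): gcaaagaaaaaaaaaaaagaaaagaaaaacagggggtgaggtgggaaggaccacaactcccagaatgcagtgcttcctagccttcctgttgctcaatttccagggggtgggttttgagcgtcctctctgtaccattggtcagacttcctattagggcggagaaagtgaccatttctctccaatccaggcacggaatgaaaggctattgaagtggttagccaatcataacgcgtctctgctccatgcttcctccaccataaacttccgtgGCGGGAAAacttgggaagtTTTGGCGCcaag
Mcm5 (chr8:75109259-75109558, plus strand): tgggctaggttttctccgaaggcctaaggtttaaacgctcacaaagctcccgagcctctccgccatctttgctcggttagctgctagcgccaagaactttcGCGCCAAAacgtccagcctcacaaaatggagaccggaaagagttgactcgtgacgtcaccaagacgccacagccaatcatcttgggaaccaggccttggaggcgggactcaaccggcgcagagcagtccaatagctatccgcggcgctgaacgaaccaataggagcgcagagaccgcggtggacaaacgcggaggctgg
Mcm6 (chr1:128359656-128359955, minus strand): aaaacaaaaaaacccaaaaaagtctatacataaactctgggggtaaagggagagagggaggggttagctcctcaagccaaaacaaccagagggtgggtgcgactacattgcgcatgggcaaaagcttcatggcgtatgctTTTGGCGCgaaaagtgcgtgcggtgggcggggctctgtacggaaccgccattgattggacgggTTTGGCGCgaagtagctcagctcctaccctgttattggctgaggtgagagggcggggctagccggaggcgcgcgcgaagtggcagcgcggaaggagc
Mcm7 (chr5:138171834-138172133, minus strand): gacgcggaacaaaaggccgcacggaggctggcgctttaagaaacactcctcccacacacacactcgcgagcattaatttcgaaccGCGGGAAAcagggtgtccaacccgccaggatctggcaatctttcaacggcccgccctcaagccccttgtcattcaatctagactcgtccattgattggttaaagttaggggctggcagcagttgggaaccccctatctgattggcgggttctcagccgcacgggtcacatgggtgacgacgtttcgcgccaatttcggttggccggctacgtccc

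The 4 genes with these promoters were all higher at 18 h. Mcm5 was at 4.22 FPKM at 12 h and 7.93 and 14.1 FPKM at 18 h on the control diet, and 5.06 FPKM at 12 h and 15.7 and 21.9 FPKM at 18 h on the PLX diet. Mcm3 was at 8.47 FPKM at 12 h against 14.5 and 20.1 at 18 h on the control diet, and 11 against 27.3 and 31.5 on the PLX diet. Mcm6 and Mcm7 had changes of 1.11 and 1.13, against 1.42 (SE 0.26) for Mcm5 and 1.14 (SE 0.18) for Mcm3. In all 4 the times did not overlap within either diet, and all 4 rose within the PLX diet, with limma adjusted p of 0.0228 to 0.0303. Mcm2, a further subunit, also rose there, and its promoter window held no match.

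Other replication genes spanned a wide range. Rrm2, the small subunit of ribonucleotide reductase, which makes deoxynucleotides, was at 1.94 FPKM at 12 h and 7.35 and 12.9 FPKM at 18 h on the control diet, and 5.63 FPKM at 12 h and 22.1 and 40.8 FPKM at 18 h on the PLX diet. Its change was 2.05 (SE 0.30, limma adjusted p = 0.0709), and in each diet both 18 h libraries lay above the 12 h library. Tk1, thymidine kinase, was at 1.81 FPKM at 12 h against 3.36 and 8.39 at 18 h on the control diet, and 1.77 against 13.4 and 24.9 on the PLX diet. E2f1, itself an E2F factor, was at 3.71 FPKM at 12 h against 6.97 and 10.5 at 18 h on the control diet, and 3.21 against 14.1 and 16.8 on the PLX diet. Uhrf1, which copies DNA methylation marks at the fork, was at 1.94 FPKM at 12 h against 5.49 and 8.27 at 18 h on the control diet, and 3.61 against 12.4 and 13.8 on the PLX diet. Lig1, the ligase of the lagging strand, was at 3.59 FPKM at 12 h against 6.17 and 9.85 at 18 h on the control diet, and 2.71 against 15.2 and 19.9 on the PLX diet, with changes of 0.94 on the control diet and 2.31 on the PLX diet (difference 1.37, SE 0.41, adjusted p = 0.138). Pcna, the sliding clamp, had the highest level of the list, at 111 FPKM at 12 h against 129 and 163 at 18 h on the control diet, and 76.8 against 142 and 159 on the PLX diet.

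Mitosis genes had lower levels and a less even pattern. Of 28 listed, 21 passed the filter, and 13 of the 21 averaged under 1 FPKM at 12 h and passed through the 18 h libraries, so a count over the 21 says nothing of the list. With no filter, 17 of the 28 lay above in both diets and none below, where 24.4% of all genes of the table lay on one side or the other. Cdk1, the kinase that drives mitosis, was at 0.543 FPKM at 12 h against 1.71 and 4.36 at 18 h on the control diet, and 1.15 against 8.27 and 10.9 on the PLX diet. Top2a, a topoisomerase, was at 0.537 FPKM at 12 h against 1.35 and 4.18 at 18 h on the control diet, and 1.35 against 7.51 and 12.1 on the PLX diet. Mki67, the antigen Ki-67 of dividing cells, was at 0.344 FPKM at 12 h against 0.371 and 1.19 at 18 h on the control diet, and 0.706 against 2.77 and 4.31 on the PLX diet. All 3 averaged under 1 FPKM at 12 h and were tested because of their 18 h levels, so the filter fixed their higher mean at 18 h. As a description only, the times did not overlap within either diet in these 3 genes. Birc5, an inhibitor of apoptosis present at mitosis, was at 1.82 FPKM at 12 h against 1.56 and 8.95 at 18 h on the control diet, and 2.52 against 18.6 and 30.5 on the PLX diet, so control replicate 1 lay below the 12 h library and replicate 2 above it. With only the libraries numbered 178 from 18 h, 19 of the 21 tested lay above in both diets (31.0% of all genes), against 12 with those numbered 180 (23.1%). Both counts include the genes that passed through the 18 h libraries, so they say nothing of the list. The part of the number in this was not tested.

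**Figure D3:**
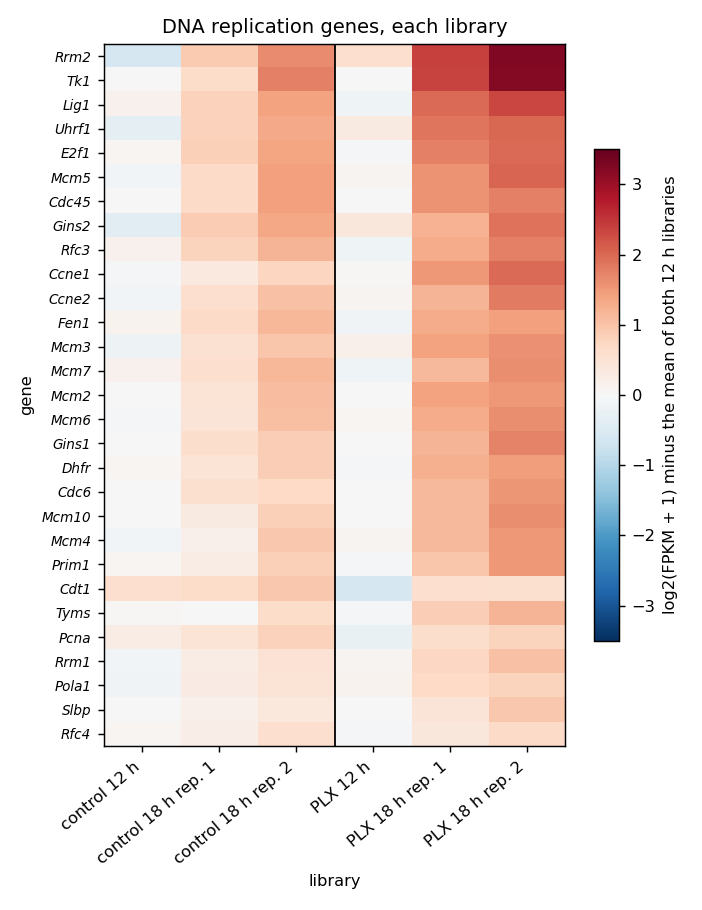
DNA replication genes (29 rows, ordered by their change) in each library (columns), coloured by log2(FPKM + 1) minus the mean of both 12 h libraries. The 2 control columns at 18 h and the 2 PLX columns at 18 h are redder than the 12 h column of the same diet in 28 of the 29 rows; Tyms is the exception, at 2.07 FPKM at 12 h and 2.04 FPKM in control 18 h replicate 1.

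Of the 42 genes higher at least 2-fold in both diets, the ones outside these lists were varied. Crct1, a gene known from skin, was at 2.15 FPKM at 12 h against 7.95 and 28.6 at 18 h on the control diet, and 4.24 against 50.6 and 71.2 on the PLX diet. Slpi, a secreted inhibitor of neutrophil proteases, was at 92.4 FPKM at 12 h against 141 and 255 at 18 h on the control diet, and 79.6 against 444 and 511 on the PLX diet. Ltc4s, the enzyme that makes leukotriene C4, was at 0.994 FPKM at 12 h against 3.44 and 4.01 at 18 h on the control diet, and 1.17 against 9.03 and 13.5 on the PLX diet. In all 3 the times did not overlap within either diet, and all 3 rose within the PLX diet (limma adjusted p = 0.0256, 0.0179 and 0.0152). In the day 2 library of sorted infiltrating cells, 21 of the 39 listed genes of this set reached 1 FPKM (53.8%). Of 64 listed genes lower in both diets 32 did, and of 11447 tested genes 8978 did (78.4%).

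Macrophage genes were mixed. The summed level of Ly6c2, Csf1r, Adgre1 and Cd68, markers of monocytes and macrophages, was 298 FPKM at 12 h against 279.8 and 330.5 FPKM at 18 h on the control diet, and 325 against 625 and 598 FPKM on the PLX diet. Of 16 tested genes of resident macrophages, 8 lay above in both diets (17.4% of all genes) and 2 below (20.4%), with a median change of 0.47, and within the PLX diet 4 rose (9.75%) and 2 fell (8.84%). Folr2, a folate receptor, was at 15.5 FPKM at 12 h against 25 and 39 at 18 h on the control diet, and 16.5 against 56.3 and 79.2 on the PLX diet. Cbr2, a carbonyl reductase, was at 83.4 FPKM at 12 h against 123 and 218 at 18 h on the control diet, and 60.5 against 218 and 307 on the PLX diet. Pf4, a platelet chemokine that resident macrophages also express, was at 331 FPKM at 12 h against 593 and 849 at 18 h on the control diet, and 669 against 1264 and 1466 on the PLX diet. In these 3 genes the times did not overlap within either diet, and Folr2 and Cbr2 rose within the PLX diet (limma adjusted p = 0.0221 and 0.025), while Pf4 was just short (0.0563).

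Ccl24, one of the 7 decreases above, and Ednrb, an endothelin receptor, were the 2 resident macrophage genes that lay below in both diets, and both fell within the PLX diet. Ednrb was at 31 FPKM at 12 h against 20.0 and 21.5 at 18 h on the control diet, and 62.5 against 32.2 and 38.5 on the PLX diet (limma adjusted p = 0.0307). Cd163, the haemoglobin scavenger receptor, took opposite sides, at 6.1 FPKM at 12 h against 16.1 and 20.6 at 18 h on the control diet, and 34.9 against 21.2 and 23.3 on the PLX diet, with a difference between diets of -2.07 (SE 0.27, adjusted p = 0.071). Stab1, a scavenger receptor outside the list, was at 12.1 FPKM at 12 h against 27.2 and 34 at 18 h on the control diet, and 18.5 against 41.5 and 46 on the PLX diet, and it rose within the PLX diet (adjusted p = 0.0219).

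Of 20 tested genes of repair macrophages, 10 lay above in both diets (17.4% of all genes) and 1 below, and within the PLX diet 7 rose (9.75%) and 1 fell. Gpnmb, a glycoprotein of lipid-laden macrophages, was at 7.74 FPKM at 12 h and 17.9 and 20.0 FPKM at 18 h on the control diet, and 15.7 FPKM at 12 h and 36.6 and 27.6 FPKM at 18 h on the PLX diet. Its change was 1.08 (SE 0.16, limma adjusted p = 0.0709), with 1.19 on the control and 0.97 on the PLX diet. Trem2, a lipid receptor, was at 35.5 FPKM at 12 h against 47.3 and 52.5 at 18 h on the control diet, and 37.7 against 88.2 and 82.8 on the PLX diet. Apoe, a lipid carrier, was at 345 FPKM at 12 h against 414 and 503 at 18 h on the control diet, and 501 against 1044 and 985 on the PLX diet. All 3 rose within the PLX diet. Spp1 and Arg1, osteopontin and arginase, took opposite sides in the diets, with control changes of 0.56 and 0.43 and PLX changes of -0.50 and -0.71.

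Of 16 pan-macrophage genes, 3 lay above in both diets, near the 17.4% of all genes, none lay below and 8 took opposite sides (27.3% of all genes). Of the 16, 7 rose within the PLX diet (9.75% of all genes) and 1 fell (8.84%). Adgre1, which encodes F4/80, was at 14.8 FPKM at 12 h against 16.4 and 23.6 at 18 h on the control diet, and 26.7 against 40.7 and 44.7 on the PLX diet. Csf1r, the receptor that the drug blocks, was at 31 FPKM at 12 h against 30.1 and 33.4 at 18 h on the control diet, and 40.3 against 60.5 and 61.8 on the PLX diet, so its control libraries overlapped between times and it rose within the PLX diet (0.59, limma adjusted p = 0.0442). Aif1, a calcium-binding protein of macrophages, was at 64.3 FPKM at 12 h against 65.8 and 77.6 at 18 h on the control diet, and 52.1 against 206 and 213 on the PLX diet, with a difference between diets of 1.84 (SE 0.24, adjusted p = 0.071). Of 17 monocyte genes, 7 lay below in both diets (20.4% of all genes) and 2 above (17.4%).

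Vessel genes were lower at 18 h. The summed level of the endothelial markers Pecam1 and Cdh5 was 162 FPKM at 12 h against 107 and 94.9 FPKM at 18 h on the control diet, and 185 against 112 and 83.1 FPKM on the PLX diet. Of 19 tested endothelial genes, 14 lay below in both diets (20.4% of all genes) and none above, with a median change of -0.59, and within the PLX diet 6 fell (8.84%) and none rose. Kdr and Flt1 encode the VEGF receptors, and Kdr was at 13.2 FPKM at 12 h and 5.92 and 4.18 FPKM at 18 h on the control diet, and 11.4 FPKM at 12 h and 5.18 and 3.68 FPKM at 18 h on the PLX diet. Kdr had a control change of -1.25 and a PLX change of -1.20, and it fell within the PLX diet (limma adjusted p = 0.0323). Cdh5, the cadherin of endothelial junctions, was at 57.5 FPKM at 12 h against 38.9 and 31.1 at 18 h on the control diet, and 86.7 against 39.7 and 28.3 on the PLX diet, and it also fell within the PLX diet (0.0251). Pecam1, CD31, was at 105 FPKM at 12 h against 68.4 and 63.8 at 18 h on the control diet, and 98.2 against 72.7 and 54.7 on the PLX diet, and it did not pass (PLX adjusted p = 0.0769). Vcam1, Selp, Ackr1, Aplnr and Egfl7 were the 5 endothelial genes that were not below in both diets.

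Of 11 tested genes of smooth muscle and pericytes, 9 lay below in both diets (20.4% of all genes) and none above, with a median change of -1.08, and within the PLX diet 3 fell (8.84%). Pdgfrb, the pericyte growth factor receptor, was at 32.4 FPKM at 12 h against 15.5 and 9.96 at 18 h on the control diet, and 33.8 against 18.1 and 10.5 on the PLX diet. Kcnj8, a potassium channel of pericytes, was at 13 FPKM at 12 h against 6.28 and 2.15 at 18 h on the control diet, and 12.6 against 5.13 and 3.03 on the PLX diet. Rgs5, a regulator of G protein signalling in pericytes, was at 12.2 FPKM at 12 h against 9.19 and 4.89 at 18 h on the control diet, and 44.7 against 6.47 and 4.15 on the PLX diet, and it fell within the PLX diet (change -2.88, limma adjusted p = 0.0174). In each of these the times did not overlap within either diet.

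Of 14 tested genes of satellite cells and myogenic factors, 9 lay below in both diets (20.4% of all genes) and none above, with a median change of -0.65, and within the PLX diet 3 fell (8.84%). Myod1, which encodes MyoD, was at 321 FPKM at 12 h and 65.1 and 46.3 FPKM at 18 h on the control diet, and 81.9 FPKM at 12 h and 25.2 and 30.5 FPKM at 18 h on the PLX diet. Its change was -2.03 (SE 0.26, limma adjusted p = 0.0598), and it fell within the PLX diet (-1.53, adjusted p = 0.022). Myf6, a myogenic factor of mature fibres, was at 520.0 FPKM at 12 h against 297 and 269 at 18 h on the control diet, and 163 against 111 and 112 on the PLX diet. Myog, myogenin, was at 56.7 FPKM at 12 h against 11.9 and 8.13 at 18 h on the control diet, and 9.76 against 6.15 and 21.1 on the PLX diet, lower in both control libraries and on both sides in the PLX libraries. Pax7, the marker of quiescent satellite cells, was at or below 0.353 FPKM in every library and was not tested.

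Among fibre genes, Acta1, the skeletal actin, at 18431 FPKM at 12 h against 14732 and 17853 at 18 h on the control diet, and 8785 against 6327 and 8785 on the PLX diet, and Ckm, the muscle creatine kinase, had changes of -0.21 and -0.14 with limma adjusted p of 0.755 and 0.83, and their times overlapped on the PLX diet. Of 24 genes of the sarcomere list, which holds both, 14 lay below in both diets (20.4% of all genes) and none above, and within the PLX diet 10 fell (8.84%) and none rose. Tcap, a cap protein of titin, was at 2796 FPKM at 12 h against 1574 and 932 at 18 h on the control diet, and 1323 against 345 and 135 on the PLX diet. Ankrd1, a stretch-responsive ankyrin repeat protein, was at 2742 FPKM at 12 h against 1190.4 and 1204 at 18 h on the control diet, and 1028 against 436 and 215 on the PLX diet. Lmod2, which elongates thin filaments, was at 22 FPKM at 12 h against 16.7 and 8.66 at 18 h on the control diet, and 28.1 against 2.68 and 2.22 on the PLX diet. All 3 fell within the PLX diet, with limma adjusted p of 0.0362, 0.0408 and 0.0164. Alpk2, a kinase of the alpha family, was at 44.2 FPKM at 12 h against 14.2 and 10.0 at 18 h on the control diet, and 34.9 against 3.91 and 2.4 on the PLX diet, with a change of -2.47 (adjusted p = 0.0602).

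The genes with the largest decreases within the PLX diet were Myh2, Ibsp, Actn2, Perm1, Alpk2 and Lmod2. Myh2, the fast oxidative myosin, was at 134 FPKM at 12 h against 170.4 and 29.9 at 18 h on the control diet, and 163 against 9.75 and 0.163 on the PLX diet. Actn2, an actinin of the Z disc, was at 135 FPKM at 12 h against 148 and 58.6 at 18 h on the control diet, and 186 against 25 and 8.54 on the PLX diet. For both, one control library of 18 h lay above the 12 h library and one below. Perm1, a regulator of mitochondria in muscle, was at 31.4 FPKM at 12 h against 16.5 and 8.74 at 18 h on the control diet, and 37.8 against 5.33 and 1.16 on the PLX diet. Ibsp, bone sialoprotein, took opposite sides, at 4.79 FPKM at 12 h against 15.5 and 133 at 18 h on the control diet, and 27.8 against 0.01 and 1.09 on the PLX diet. Mmp13, a collagenase that bone cells express, also took opposite sides, at 5.22 FPKM at 12 h against 13.5 and 112 at 18 h on the control diet, and 33.1 against 1.72 and 1.78 on the PLX diet. The largest increases within the PLX diet after Hbb-bs were Crct1, Birc5, Tk1, Stmn1 and Ms4a7. Stmn1, which destabilises microtubules, was at 3.67 FPKM at 12 h against 4.16 and 9.56 at 18 h on the control diet, and 2.59 against 17.6 and 30.4 on the PLX diet. Ms4a7, a membrane protein of macrophages, was at 12.3 FPKM at 12 h against 19.7 and 22.8 at 18 h on the control diet, and 6.76 against 43.7 and 53.4 on the PLX diet. Both lay above in both diets.

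Genes of mitochondrial fuel use were mostly lower at 18 h. Of 22 tested fatty acid oxidation genes, 15 lay below in both diets (20.4% of all genes) and none above, and within the PLX diet 11 fell (8.84%); the median change was -0.23 on the control diet and -0.78 on the PLX diet. Of 17 citric acid cycle genes, 12 lay below in both and none above, and 12 fell within the PLX diet, with medians of -0.14 and -0.67. Of 34 oxidative phosphorylation genes, 19 lay below in both and none above, and 5 fell and 1 rose within the PLX diet. Another 11 took opposite sides, 10 of them below on the control and above on the PLX diet, and the medians were -0.26 and -0.17. No gene of these 3 lists passed for the difference between diets. Cpt1b, which carries fatty acids into mitochondria, was at 39.5 FPKM at 12 h against 28.9 and 18.7 at 18 h on the control diet, and 32.5 against 7.81 and 7.11 on the PLX diet (PLX limma adjusted p = 0.0174). Ucp3, an uncoupling protein of muscle, was at 5.31 FPKM at 12 h against 4.78 and 4.2 at 18 h on the control diet, and 15.5 against 1.14 and 1.06 on the PLX diet, with a difference between diets of -2.77 (SE 0.24, adjusted p = 0.0678).

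Clock genes were mostly lower at 18 h. The labels give no hour of the day for injury or harvest, so time of day and time after injury cannot be told apart. Of 17 tested, 10 lay below in both diets (20.4% of all genes) and none above, and 8 fell within the PLX diet (8.84%). Of the 17, 1 averaged under 1 FPKM at 18 h and passed the filter through the 12 h libraries. Its mean at 18 h therefore had to be lower. With no filter, 12 of the 20 clock genes in the table lay below in both diets and none above, where 13.4% of all its genes lay below. Nfil3, a repressor that opposes the clock factor Dbp, was at 49.6 FPKM at 12 h against 23 and 25.7 at 18 h on the control diet, and 50.9 against 16.2 and 16.4 on the PLX diet, with a change of -1.29 (limma adjusted p = 0.0602). Per1, a repressor that also answers to glucocorticoid, was at 29.9 FPKM at 12 h against 20.6 and 19.5 at 18 h on the control diet, and 34 against 14.9 and 10.2 on the PLX diet. Arntl, which encodes BMAL1, was at 38 FPKM at 12 h against 29.9 and 20.3 at 18 h on the control diet, and 23.4 against 12.5 and 10.0 on the PLX diet. All 3 fell within the PLX diet. Dbp itself was at 7.0 FPKM at 12 h against 6.58 and 8.55 at 18 h on the control diet, and 3.93 against 4.33 and 4.06 on the PLX diet, with a change of 0.08. An E-box, CACGTG, stood in the promoter window of 6 of 15 clock genes in the RefSeq table (40.0%), against 12.1% of tested genes.

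Ribosomal proteins, proteasome subunits and chaperones of the endoplasmic reticulum leaned upward. Of 34 tested cytosolic ribosomal protein genes, 16 lay above in both diets (17.4% of all genes) and none below, and 6 rose within the PLX diet (9.75%). Of 35 proteasome genes, 15 lay above and none below, and 13 rose within the PLX diet. Another 10 took opposite sides, all 10 below on the control and above on the PLX diet. The median proteasome change was 0.04 on the control diet and 0.48 on the PLX diet. Of 19 genes of the unfolded protein response, 11 lay above and 2 below, and 5 rose within the PLX diet. Among these 5, Manf, a secreted stress factor, was at 117 FPKM at 12 h against 133 and 174 at 18 h on the control diet, and 77.3 against 161 and 138 on the PLX diet. Hsp90b1, the chaperone GRP94, was at 287 FPKM at 12 h against 331 and 403 at 18 h on the control diet, and 232 against 447 and 400.3 on the PLX diet. Of 27 genes of ribosome biogenesis, 7 lay above and 2 below, and 3 rose within the PLX diet. The 6 erythroid genes had a median change of 0.90, but 1 of them lay above in both diets, and red cell genes stood with the title number as given above. That gene was Hbb-bs, which passed the filter through the 18 h libraries. Ribosomal protein genes have many near-identical pseudogenes, so their levels are uncertain.

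**Figure D4:**
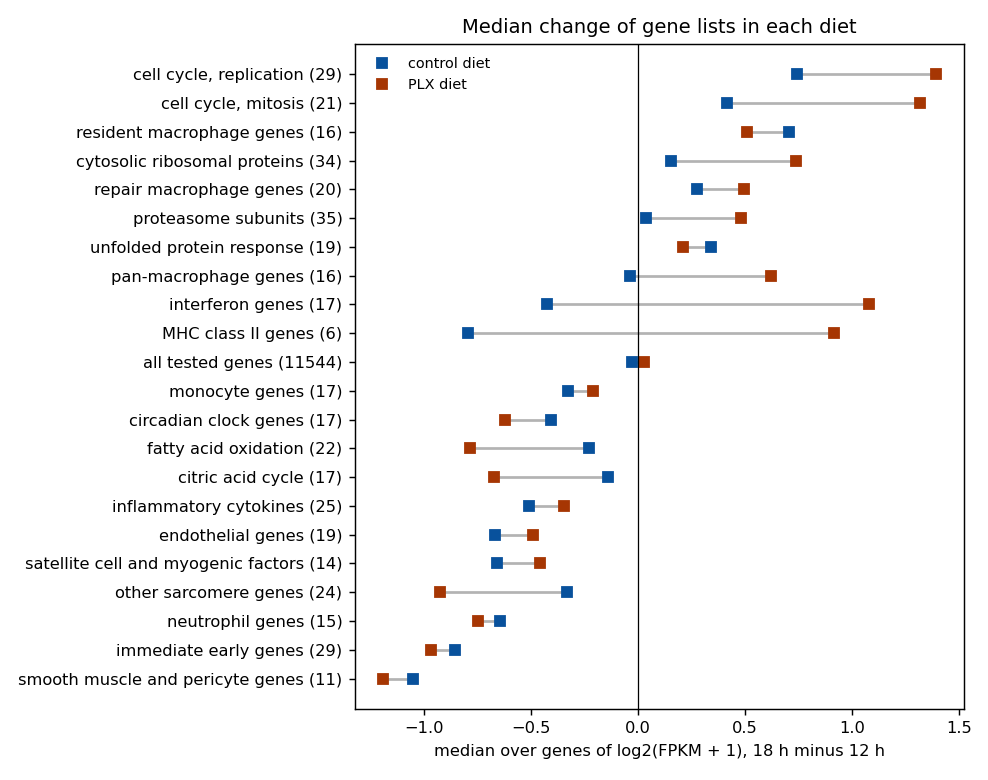
Median over the tested genes of each list (number in brackets) of the change in log2(FPKM + 1) from 12 h to 18 h, with blue squares for the control diet and orange squares for the PLX diet. Both squares lie right of 0.74 for the replication list and left of -0.84 for the immediate early and the smooth muscle and pericyte lists, while the interferon and MHC class II lists have the blue square left of -0.42 and the orange square right of 0.91.

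In the interferon and MHC class II lists nearly every gene took opposite sides in the diets. Of 17 interferon-induced genes, 16 had both 18 h libraries below the 12 h library on the control diet and above it on the PLX diet, where 27.3% of all genes took opposite sides of either kind, and all 6 MHC class II genes did the same. The median interferon change was -0.43 on the control diet and 1.08 on the PLX diet, and the median class II change was -0.79 and 0.92. Within the PLX diet 12 of the 17 and all 6 rose, within the control diet none passed, and no gene of either list passed for the difference between diets over all genes. The next lists by share were cholesterol synthesis, with 8 of 17 genes on opposite sides, and the pan-macrophage genes, with 8 of 16, and in every further list it was at most 6 of 17. List medians also had opposite signs for the 22 monocyte-attracting and other chemokines (-0.50 on the control and 0.28 on the PLX diet) and the 10 dendritic cell genes (-0.74 and 0.09), among others.

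Bst2, or tetherin, which holds budding virus at the cell surface, was at 134 FPKM at 12 h and 105 and 106 FPKM at 18 h on the control diet, and 92.1 FPKM at 12 h and 409.7 and 393 FPKM at 18 h on the PLX diet. Its control change was -0.35 and its PLX change 2.11, with a difference of 2.46 (SE 0.22, limma adjusted p = 0.0678). Isg15, a ubiquitin-like protein, was at 50.3 FPKM at 12 h against 34.7 and 22.6 at 18 h on the control diet, and 73.4 against 257 and 200.0 on the PLX diet (difference 2.44, adjusted p = 0.0761). Irf7, the factor that amplifies the interferon response, was at 17.5 FPKM at 12 h against 13.7 and 10.9 at 18 h on the control diet, and 40.9 against 126 and 124 on the PLX diet (difference 2.07, adjusted p = 0.071). In all 3 the 18 h libraries of each diet lay close to each other relative to their distance from the 12 h library on the PLX diet. On the control diet Isg15 spread from 22.6 to 34.7 FPKM at 18 h.

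Among class II genes, Cd74, the invariant chain, was at 507 FPKM at 12 h and 246 and 304 FPKM at 18 h on the control diet, and 201 FPKM at 12 h and 452 and 447 FPKM at 18 h on the PLX diet. H2-Aa, the alpha chain of the class II molecule, was at 183 FPKM at 12 h against 104 and 112 at 18 h on the control diet, and 91.6 against 184 and 160.2 on the PLX diet. For Cd74 and H2-Aa the differences between diets were 2.05 (SE 0.29) and 1.66 (SE 0.24), both with limma adjusted p = 0.071. Both PLX libraries of 18 h reached levels near the control library of 12 h, and the control libraries of 18 h reached levels near the PLX library of 12 h. Among monocyte genes, Ly6c2, a surface marker of inflammatory monocytes, was at 25.6 FPKM at 12 h against 12.3 and 15.7 at 18 h on the control diet, and 74.3 against 151 and 149 on the PLX diet. Plac8 was at 46.5 FPKM at 12 h against 35.2 and 39.7 at 18 h on the control diet, and 119.9 against 383 and 363 on the PLX diet. Both took the same opposite sides as the class II genes. Their differences between diets were 1.84 and 1.94, both with limma adjusted p = 0.071. The monocyte list did not move as they did. Of its 17 tested genes, 5 took opposite sides, near the 27.3% of all genes, 4 of them in this direction. Another 7 lay below in both diets (20.4% of all genes) and 2 above (17.4%). Within the PLX diet 3 of the 17 rose (9.75%) and 4 fell (8.84%).

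**Figure D5:**
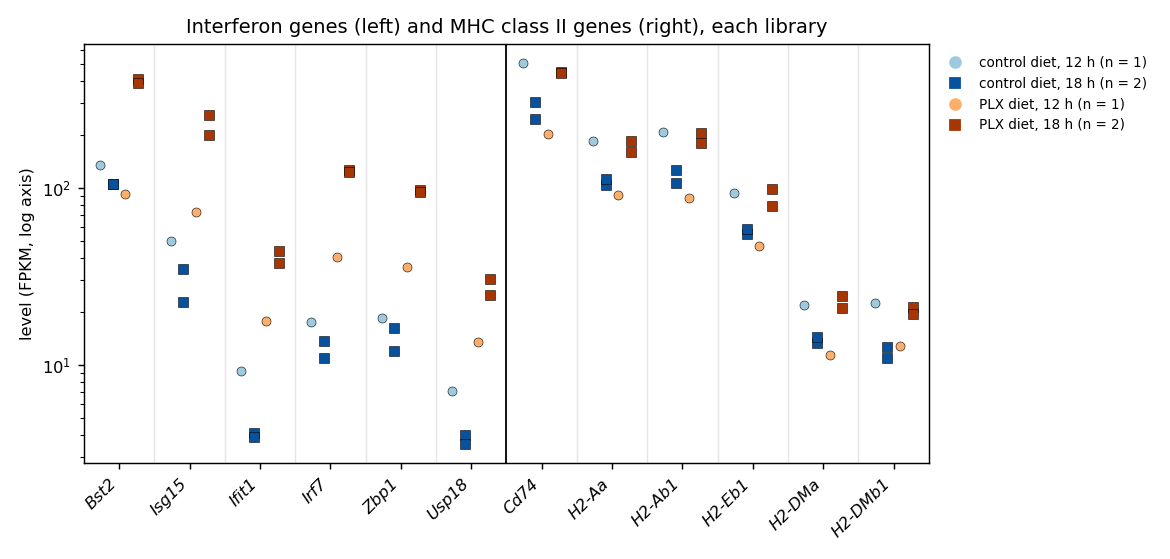
Levels in FPKM (log axis) of 6 interferon genes and 6 MHC class II genes, with 1 point per library, circles for 12 h and squares for 18 h, blue for the control diet and orange for the PLX diet. In all 12 genes the blue squares lie below the blue circle and the orange squares above the orange circle, as for Bst2, at 134 FPKM against 105 and 106 FPKM on the control diet and at 92.1 FPKM against 409.7 and 393 FPKM on the PLX diet.

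All comparisons rest on 1 library per diet at 12 h. Without the control 12 h library the test with diet as a term is the PLX comparison and called 1124 genes higher and 1011 lower, and without the PLX 12 h library it is the control comparison and called 2 higher and 1 lower. Without control 18 h replicate 1 it called 46 higher and 48 lower, and these included all 8 genes named above.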

How the data were processed

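RNA-seq of whole muscle was used as FPKM per gene, in the table the authors deposited; per the submitters' processing notes, bcl2fastq, STAR, Bowtie, Cufflinks and the build mm10 were used, with no role or version given. The table holds 24340 entries, of which 27 named as dates and 1280 small RNA genes were left out. The 11544 genes whose mean reached 1 FPKM were tested as log2(FPKM + 1) with limma 3.58.1 in R 4.3.3 (trended variance, Benjamini-Hochberg adjustment, threshold 0.05): diet and time as terms, and 4 group means for the within-diet changes and their difference. Data were simulated with independent normal noise and 100 genes changed by each of 1 and 2 log2 units, the same in both diets. The changed genes were drawn from those with a higher mean level. With diet as a term 76 and 97 were recovered, within the control diet 18 and 94, and within the PLX diet 25 and 92. False calls were 9, 13 and 13 among 11544 genes. No difference between diets was simulated, so its recovery was not tested, and the test for it made 1 false call. Depth is unknown beyond the relative estimate from the lowest values. The groups came from the labels. Genes were named as the largest changes past the threshold (up to 12 each way with diet as a term, 6 within a diet), the largest of each list, and a set of single genes; further members are given by value. The members and 55 lists were chosen with earlier results of these data known. Alternatives were another pseudocount and filter, scaled libraries, left-out libraries, title number and robust variance. Promoters came from RefSeq (GRCm38.p6). Sorted cells and dystrophic muscle were not analysed here, except 1 sorted library from day 2.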

Additional observations from a re-analysis of the deposited data

Results flagged for a closer look

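For the genes given here, both 18 h libraries lay on opposite sides of the 12 h library in the control and PLX diets. The difference between the changes (PLX minus control, log2) did not pass by limma over all tested genes for any of them, and each diet has 1 library at 12 h. Positive differences were 2.46 for Bst2, 2.07 for Irf7, 2.44 for Isg15, 2.05 for Cd74, 1.66 for H2-Aa, 1.94 for Plac8, 1.84 for Ly6c2 and 1.51 for Jund. Negative differences were -7.33 for Ibsp, -6.33 for Mmp13, -2.07 for Cd163, -1.74 for Sgk1, -1.45 for Ppbp, -1.14 for Arg1 and -1.06 for Spp1. For Ibsp and Mmp13 control 18 h replicate 2 stood apart, at 133 FPKM for Ibsp against 15.5 FPKM in replicate 1 and at 112 FPKM for Mmp13 against 13.5 FPKM. Opposite sides were taken by 27.3% of all tested genes.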

How the results depend on the processing

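Counts with diet as a term are given as shares of the genes tested, since that number differs between settings. Leaving out 1 library at a time gave 0.00864% to 9.72% higher and 0% to 8.74% lower with diet as a term, and, in genes, 0 to 4 higher and 0 to 20 lower within the control diet, 315 to 717 higher and 426 to 736 lower within the PLX diet, and 0 to 0 higher and 0 to 1 lower for the difference between diets. With no filter on low values 0% were higher and 0.00434% lower with diet as a term, and the numbers of genes were 36 and 219 within the control diet, 58 and 305 within the PLX diet, and 214 and 268 for the difference. With a minimum mean of 5 FPKM 0.0375% and 0.287% passed with diet as a term, 11 genes were lower within the control diet, and 10 and 4 passed for the difference. With only the libraries numbered 180 0.659% were higher (76 of 195 genes called) and 1.03% lower with diet as a term. A term for the title number as a replicate block left 0% lower with diet as a term and gave 478 and 242 for the difference; leaving out the diet term also gave 0% lower. The labels state no pairing, and the deviations of the 2 libraries numbered 180 at 18 h correlated at 0.334 over 11544 genes. With 2 numbers at 18 h and 1 at 12 h the design does not show what libraries of a number share, and no pairing was assumed. A pseudocount of 0.1 gave 92 genes at least 2-fold higher in both diets, 128 lower and 46 opposite. A minimum mean of 5 FPKM gave 24 higher and 13 opposite, and the libraries numbered 180 alone gave 14 higher and 41 lower. With 18 h libraries numbered 178 only, a comparison chosen after seeing the data, 3580 genes lay above and 3548 below in both diets, where 1 library per group replaces 2; the minimum of 5 FPKM left 1560 below, with fewer genes tested. Apart from these fewer libraries or genes, the cause was not tested. Of the genes named, Myog reversed, to 0.22 without the control 12 h library, within a range of -2.41 to 0.22 over left-out libraries.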

Other observations

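Among complement components, the C1q subunits, which macrophages make, lay above in both diets. C1qa was at 111 FPKM at 12 h against 159.6 and 195 at 18 h on the control diet, and 69 against 448 and 431 on the PLX diet, and C1qb and C1qc had changes of 0.58 and 0.32 on the control diet and 1.68 and 1.98 on the PLX diet. All 3 rose within the PLX diet (limma adjusted p = 0.012, 0.0172 and 0.0133). C3, the central component, fell there and was at 30.3 FPKM at 12 h against 22.4 and 28.7 at 18 h on the control diet, and 78.7 against 46.5 and 43.7 on the PLX diet (adjusted p = 0.0393). Of the 15 tested components 6 lay above in both diets (17.4% of all genes) and 3 below, near the 20.4% of all genes.

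Of 22 tested matrix proteases and inhibitors, 9 lay below in both diets (20.4% of all genes), 3 above (17.4%) and 7 on opposite sides (27.3%), and within the PLX diet 5 fell (8.84%) and 1 rose (9.75%). Of the 7 ADAMTS proteases in this list, which cleave matrix proteoglycans and related proteins, 6 lay below and Adamts2 took opposite sides. Adamts4 was at 9.55 FPKM at 12 h against 5.57 and 3.43 at 18 h on the control diet, and 24.4 against 5.92 and 3.29 on the PLX diet and Adamts1 at 27 FPKM at 12 h against 19.9 and 18.6 at 18 h on the control diet, and 53.7 against 20.5 and 14.9 on the PLX diet. Both fell within the PLX diet (limma adjusted p = 0.022 and 0.0179). Of 20 genes of the TGF-beta superfamily, 11 lay below in both diets (20.4% of all genes) and 1 above, and within the PLX diet 7 fell (8.84%) and 1 rose. Mstn, which encodes myostatin, a brake on muscle growth, was at 3.9 FPKM at 12 h against 2.88 and 2.53 at 18 h on the control diet, and 4.43 against 0.683 and 0.54 on the PLX diet. Gdf15, a stress cytokine, was the 1 that rose, at 62.5 FPKM at 12 h against 113 and 111 at 18 h on the control diet, and 6.98 against 53.1 and 33.8 on the PLX diet (adjusted p = 0.0164). Of 14 glucocorticoid response genes, 7 fell within the PLX diet (8.84% of all genes) and none rose, and 5 lay below in both diets (20.4%). Sgk1, a kinase that glucocorticoid induces, took opposite sides, at 77.2 FPKM at 12 h against 105 and 93.4 at 18 h on the control diet, and 139 against 67.5 and 40.9 on the PLX diet.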
